A study of Mus musculus with 13 samples.

Results

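Wild-type mouse pre-iPSCs were compared at the end and at the start of a chemical conversion, with all genes in view: the 2 libraries labelled day 10 were set against the 2 titled DMSO and labelled day 0. These 4 libraries were chosen by their titles from the 13 of the study. Pre-iPSCs are cells caught part of the way through reprogramming, here derived from mouse embryonic fibroblasts (MEFs), and the genotype of all 4 libraries is wildtype. From day 0 the cultures received ascorbic acid (AA) at 50 µg/mL with CHIR-99021 and PD-0325901, together called 2i, in medium with 15% fetal bovine serum and leukaemia inhibitory factor (LIF), and they were split on day 4. The serum and LIF are shared by both ends of the comparison. The day 0 libraries also carry the treatment label AA+2i, but their title and time point were read as the untreated start. No untreated day 10 culture is among the libraries, so treatment, time in culture and the split cannot be told apart. The 2 wild-type day 2 libraries and 1 library of V6.5 mouse embryonic stem cells (ESCs, time point 0hr) are given beside the values as levels. Nothing in the labels tells if A and B came from different cultures, so the p-values measure the spread between these libraries, which may be technical. The 4 libraries of Kdm3b knockout (KO) pre-iPSCs, at day 0 and day 10 of the same course, serve for a test of whether the change differed with genotype.

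CHIR-99021 inhibits the kinase GSK3 and so lets beta-catenin act on Wnt target genes, PD-0325901 inhibits MEK and so withholds the signal that activates ERK, and ascorbic acid keeps the iron of certain dioxygenases in its active state, among them TET enzymes and histone demethylases such as KDM3B, which acts on lysine 9 of histone H3. Naive mouse pluripotent cells rest on a network of transcription factors that LIF and 2i sustain. Pre-iPSCs hold the introduced factors at high level while most of that network stays silent, and many germline genes are kept off in somatic cells by DNA methylation at their promoters.

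The files hold RSEM expected counts for 20325 genes, and levels are given as CPM, counts scaled to a common library size with TMM factors. The 4 libraries held 26430050 and 19261268 counts at day 0 and 18144516 and 15460134 at day 10. Replicates correlated at 0.981 (day 0) and 0.991 (day 10) over log2 CPM. Library A differed from B at day 0 along transcript length (Spearman's rho of the A minus B difference with length -0.636 over 9704 genes, with a median absolute difference of 0.402 on the log2 scale). At day 10 the same values were 0.134 and 0.11. The A minus B differences of day 0 were shared by day 2 (r = 0.934) and not by day 10 (r = -0.181), so the day 0 and day 10 libraries fall into sets that differ in this respect as well as in time, and its part in the changes below was not tested. Kdm3b itself stood at 183 and 249 CPM at day 0 and at 194 and 193 CPM at day 10 in wild-type cells, and at 44.4 and 65.1 CPM, then 19.6 and 41.4 CPM, in the KO libraries, all below the wild-type ones.

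Of 14324 genes tested, 4889 (34.1%) were called changed by edgeR's quasi-likelihood test at a Benjamini-Hochberg adjusted p (FDR) under 0.05. The calls were unequal in size. The 3012 genes called higher (21% of those tested) had a median log2 fold change of 2.65, and the 1877 called lower (13.1%) had a median of -1.22. A log2 change of at least 3 was reached by 1349 genes called higher and 178 called lower. Much of the gain began near 0: 312 genes called higher had no count in either day 0 library, whereas 12 called lower had none at day 10, and 1513 genes called higher averaged at most 1 CPM at day 0. The median over all tested genes was -0.03, and for 9897 genes (69.1%) the day 0 and day 10 libraries did not overlap. In bulk RNA, more cells expressing a gene and more RNA per cell cannot be told apart.

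**Figure D1:**
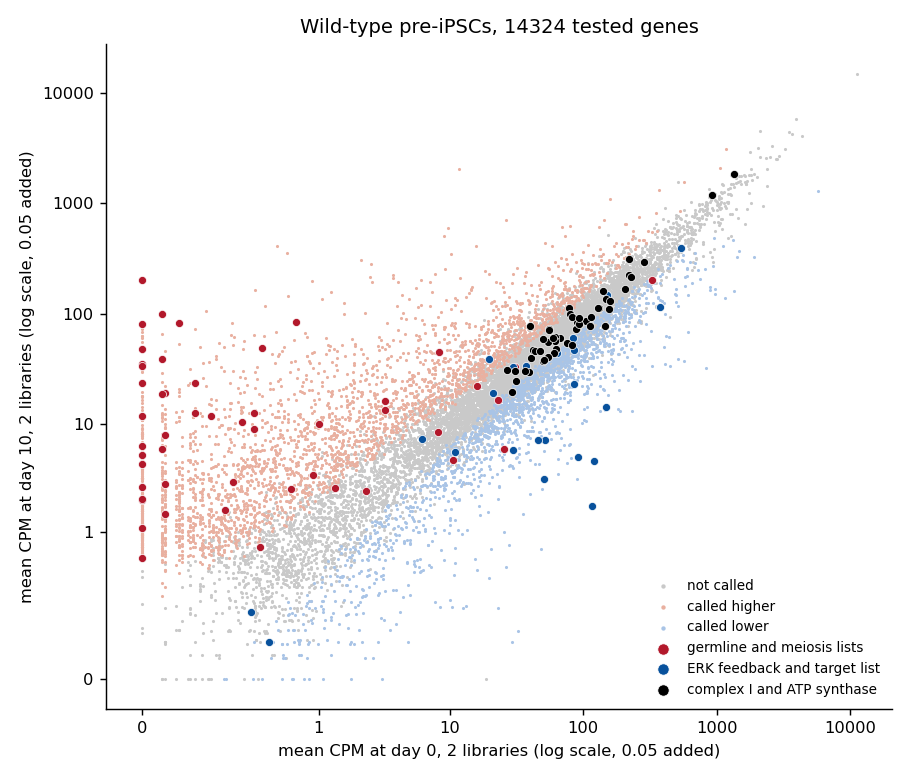
Mean CPM of each tested gene at day 0 (x) and day 10 (y), on log axes with 0.05 added, in wild-type pre-iPSCs (means of 2 libraries). Genes called higher fan out from the left edge, where many members of the germline and meiosis lists lie, while several ERK list members fall far below the diagonal and the complex I and ATP synthase subunits lie along it.

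Genes with no count at day 0 were among those with the largest gains. The RNA-binding germ cell gene Dazl had none at days 0 and 2 and stood at 219 and 188 CPM at day 10, which is at least 3090-fold higher, against a floor of 3 counts over the day 0 group (FDR 0.000765). Sohlh2, a transcription factor of the germ line, stood at 0 and 0 CPM at day 0 and reached 69.3 and 76.9 CPM. It was at least 1100-fold higher at day 10, against the same floor, and in the ESC library it stood at 6.83 CPM. Rpl10l and Rpl39l, the testis-type copies of ribosomal proteins L10 and L39, went from 0 in both day 0 libraries to 68.4 and 92.6 CPM and to 63 and 62.6 CPM. They were at least 1200-fold and 948-fold higher (FDR 0.00295 and 0.00259). Triml2 and Triml1, tripartite-motif-like genes of the early embryo, reached 59 and 66.8 CPM and 39.8 and 50.6 CPM from 0. Each of these genes was also detected in the ESC library.

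The largest falls included the following genes. Vat1l fell from 39.9 and 25.6 CPM to 0.106 and 0.0625 CPM, or 3 counts in all at day 10 (ratio 0.00256, 95% counting interval 0.000528 to 0.0075). Tph1, which starts serotonin synthesis, fell from 27 and 19.4 CPM to 0.211 and 0.125 CPM. Tnfsf11, the cytokine RANKL, fell from 10.8 and 9.9 CPM to 0.158 and 0.187 CPM. Areg, the EGF receptor ligand amphiregulin, fell from 9.78 and 10.2 CPM to 0.106 and 0.312 CPM. The log2 fold changes of Tph1, Tnfsf11 and Areg were -7.03 ± 0.60 (SE), -5.86 ± 0.36 and -5.58 ± 0.44, with FDR of 8.56e-05, 2.56e-05 and 6.15e-05. Both day 2 libraries lay between the end points for all 4 genes. Among abundant genes, Fstl1, a secreted follistatin-like protein, fell from 1758 and 2065 CPM to 359 and 287 CPM, and Ly6a, the surface antigen Sca-1, from 1773 and 1177 CPM to 391 and 349 CPM. The abundant genes that rose included Cmah, a sialic acid hydroxylase (1071 and 1280 to 2784 and 3384 CPM), Txnip, an inhibitor of thioredoxin and of glucose uptake (375 and 360 to 1524 and 1086 CPM), and Ckb, the brain-type creatine kinase (291 and 235 to 716 and 771 CPM).

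**Figure D2:**
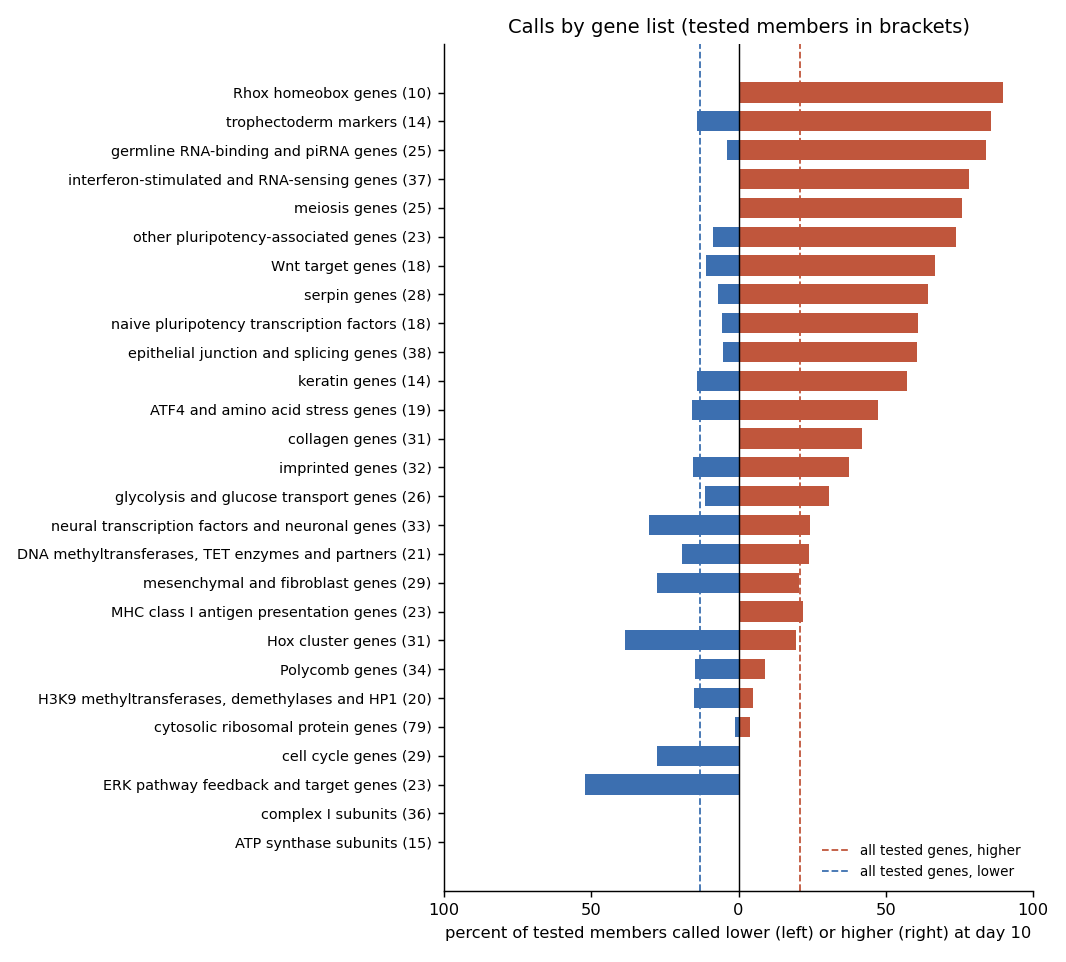
Percent of the tested members of each gene list called lower (left bars) or higher (right bars) at day 10, with dashed lines at the shares of all tested genes. Germline, meiosis, Rhox, trophectoderm and interferon lists reach far beyond the right line, the ERK list beyond the left line, and complex I and ATP synthase subunits have no bar.

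Germline and meiosis genes rose together. Of 28 listed germline RNA-binding and piRNA genes, 25 were tested, 21 were called higher and 1 lower, with a median log2 fold change of 6.96 (6.60 with the 7 genes that had no count at day 0 set at their lower bound). Of 31 meiosis genes, 25 were tested, 19 were higher and none lower, with a median of 6.47 (4.96 with 8 genes at their bound). Another 9 of 10 tested Rhox genes, reproductive homeobox genes clustered on the X chromosome, were higher, from 31 in the files. These shares stand beside 21% higher over all tested genes. A gene with no count at day 0 could not be called lower. The low-count filter kept such genes only for their counts in other libraries. Among the Rhox genes tested, 6 had no count at day 0 or at day 10. At an unadjusted p under 0.05, 1 meiosis gene and no Rhox gene was lower by edgeR, and DESeq2 called none lower in either list. A fit with a term for the replicate letter called 2 meiosis genes and no Rhox gene lower. Many Rhox copies are near-identical and may share reads, and DESeq2 called 2 Rhox genes, while leaving out either wild-type day 10 library left 5.

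Promoters of 5 genes are shown because members of these lists and of the interferon list below share short motifs there. Each sequence is a RefSeq promoter on GRCm38.p6, 250 bases before to 50 after the start, 5′ to 3′ on the gene's strand. The files themselves were made on mm9. For a gene with more than 1 start, the first one listed was used, here and for the shares below. Hormad1 and Fkbp6 have 2 starts listed. Capitals mark CACGTG, a palindromic E-box, in Hormad1 (chr3:95559427-95559726, plus strand), Fkbp6 (chr5:135349995-135350294, minus strand) and Tdrd9 (chr12:111971309-111971608, plus strand). In Isg15 (chr4:156200769-156201068, minus strand) and Ifih1 (chr2:62646206-62646505, minus strand) they mark the letters GAAA, NN and GAAA in a row, the core of the interferon-stimulated response element, where matches may overlap.
Hormad1: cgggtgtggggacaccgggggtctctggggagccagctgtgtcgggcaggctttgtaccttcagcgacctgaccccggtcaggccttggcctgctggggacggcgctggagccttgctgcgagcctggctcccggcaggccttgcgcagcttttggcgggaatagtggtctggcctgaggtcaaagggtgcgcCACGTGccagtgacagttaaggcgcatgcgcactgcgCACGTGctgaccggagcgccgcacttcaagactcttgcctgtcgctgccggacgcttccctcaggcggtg
Fkbp6: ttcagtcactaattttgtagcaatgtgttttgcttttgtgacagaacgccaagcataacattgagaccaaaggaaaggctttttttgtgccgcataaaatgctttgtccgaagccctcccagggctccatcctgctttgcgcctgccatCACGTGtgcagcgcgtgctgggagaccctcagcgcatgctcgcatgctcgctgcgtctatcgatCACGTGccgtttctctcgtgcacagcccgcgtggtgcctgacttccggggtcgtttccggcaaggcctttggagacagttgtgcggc
Tdrd9: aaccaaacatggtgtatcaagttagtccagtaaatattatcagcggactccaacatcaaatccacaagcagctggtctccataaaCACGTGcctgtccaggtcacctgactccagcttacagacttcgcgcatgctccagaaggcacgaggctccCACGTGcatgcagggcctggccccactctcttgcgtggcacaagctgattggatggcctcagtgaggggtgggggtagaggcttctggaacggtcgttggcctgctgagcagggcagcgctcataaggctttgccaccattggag
Isg15: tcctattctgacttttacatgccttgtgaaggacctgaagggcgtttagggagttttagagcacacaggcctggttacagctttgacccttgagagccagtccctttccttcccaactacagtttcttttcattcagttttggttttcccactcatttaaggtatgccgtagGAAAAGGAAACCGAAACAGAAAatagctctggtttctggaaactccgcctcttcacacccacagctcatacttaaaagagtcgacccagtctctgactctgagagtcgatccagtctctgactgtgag
Ifih1: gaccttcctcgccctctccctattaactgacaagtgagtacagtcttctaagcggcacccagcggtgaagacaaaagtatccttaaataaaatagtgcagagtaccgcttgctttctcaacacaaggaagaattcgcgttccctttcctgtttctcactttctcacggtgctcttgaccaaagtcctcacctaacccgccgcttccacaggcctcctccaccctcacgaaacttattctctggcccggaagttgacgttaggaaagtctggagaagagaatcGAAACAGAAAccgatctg

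CACGTG occurred in 15 of the 36 promoters found for the 40 germline and meiosis genes called higher (41.7%), and in 1134 of 11378 promoters of tested genes (10.0%). In Hormad1, Fkbp6 and Tdrd9 it occurred at 2 places each. The share was 11.0% among 245 promoters of genes called higher from no count. The median number of CpG was 18 per promoter in the germline and meiosis genes called higher, 20 in all tested genes and 8 in the genes called higher from no count. Hormad1, a protein of the meiotic chromosome axis, had no count at days 0 and 2 and stood at 37.2 and 33.2 CPM at day 10, which is at least 534-fold higher (FDR 0.000727, and not called by DESeq2). Fkbp6, a co-chaperone of the piRNA pathway, also had no count at days 0 and 2 and stood at 53.9 and 42.3 CPM at day 10, which is at least 733-fold higher (FDR 0.000875), against 2.24 CPM in the ESC library. Tdrd9, a helicase with a Tudor domain that acts in transposon silencing, had 1 count at day 0 and stood at 3.64 and 2 CPM at day 10, a ratio of 131 (95% counting interval 23 to 5220).

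Other members of the meiotic axis and its cohesin rose as well. Smc1b, the meiotic form of a cohesin subunit, stood at 0 and 0 CPM at day 0 and at 22.2 and 25 CPM at day 10, which is at least 354-fold higher (FDR 9.46e-05). Rec8, the meiotic kleisin, went from 3 counts at day 0 to 22.8 and 24.6 CPM, a ratio of 357 (122 to 1730). Dmc1, the meiotic strand-exchange recombinase, went from 1 count to 18.3 and 20.2 CPM, a ratio of 868 (155 to 34300). Stra8, which responds to retinoic acid at meiotic entry, reached 30.5 and 36 CPM from none, at least 498-fold higher (FDR 0.000314). The ESC library held less Stra8 (9.49 CPM) and Smc1b (8.08 CPM) than both day 10 libraries, and more Rec8 (27.6 CPM) and Dmc1 (21.9 CPM). In the piRNA list, Tdrd12 stood at 0.0399 and 0.0495 CPM at day 0 and at 83.3 and 82.1 CPM at day 10, and Gpat2 at 0.0399 and 0 CPM, then 38.6 and 39.6 CPM. Tex19.1, which restrains retrotransposons in germ cells and placenta, went from 0.878 and 0.445 CPM to 78.8 and 90.1 CPM (log2 fold change 6.96 ± 0.67, FDR 0.000139). Tdrkh, the Tudor protein that anchors PIWI proteins at mitochondria, was the exception: it fell from 29.1 and 21.8 CPM to 6.97 and 4.75 CPM (-2.12 ± 0.31, FDR 0.00106), and day 2 was already at 5.92 and 4.67 CPM. In the MAGE family 5 of 11 tested genes were higher and 3 lower (45.5% and 27.3%, beside 21% and 13.1% of all tested genes). Mageb16 rose from 0.12 and 0.0495 CPM to 45.7 and 53.9 CPM, and the family members that fell were Magee1, Magel2 and Mageh1. The higher count was 2 without either wild-type day 10 library and by DESeq2, and the lower count was 1 without WT day 10 replicate A.

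The factors that drive reprogramming moved in opposite directions. Pou5f1, the factor OCT4, stood at 4139 and 7301 CPM at day 0 and at 1212 and 1340 CPM at day 10, with 1540 CPM in the ESC library. Klf4 stood at 886 and 1976 CPM, then 341 and 307 CPM, and Myc at 767 and 1532 CPM, then 150 and 126 CPM. All 3 fell (log2 fold changes -2.16 ± 0.55, -2.14 ± 0.65 and -3.06 ± 0.62, with FDR of 0.0146, 0.0312 and 0.00507), and day 2 lay between the end points. The replicates differed most at day 0, and without WT day 0 replicate B or either wild-type day 10 library Myc was the single call of the 3. Klf4 was also not called without either KO day 10 library. Gene totals cannot tell introduced copies from the cells' own genes. Sox2 stood at 233 and 470 CPM, then 363 and 444 CPM (FDR 0.798), and Mycn at 68.4 and 80.1 CPM, then 81.2 and 84.5 CPM (FDR 0.465). Mycl1, the third MYC family gene, rose from 0.279 and 0.346 CPM to 25.3 and 26.4 CPM (6.35 ± 0.41, FDR 2.9e-05), with both day 2 libraries still at or under 0.345 CPM. Lin28a, an inhibitor of let-7 microRNA maturation, rose from 1.28 and 1.09 CPM to 44.7 and 59.3 CPM (5.45 ± 0.61, FDR 0.000428), and the ESC library held 531 CPM.

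In a list of 18 naive pluripotency genes, mostly transcription factors, 11 were higher and 1 lower (61.1% and 5.6%, median 1.46). The shares of all tested genes were 21% and 13.1%. Pou5f1 and Klf4, which fell, were counted in the reprogramming list and not here. Tcl1, a coactivator of AKT, had 1 count at day 0 and stood at 57.2 and 73.6 CPM at day 10, a ratio of 2930 (525 to 116000). Tcfcp2l1, a target of LIF and 2i signalling, stood at 20.5 and 31.9 CPM at day 0, at 249 and 286 CPM at day 2 and at 681 and 726 CPM at day 10 (4.75 ± 0.38, FDR 6.15e-05). The ESC library held 136 CPM, less than either day 2 library. Rarg, a retinoic acid receptor, was the member that fell, from 91.8 and 102 CPM to 48.4 and 49.1 CPM (-0.99 ± 0.14, FDR 0.000845). Of 23 tested genes in the wider pluripotency list, 17 were higher and 2, Zfp57 and L1td1, lower (73.9% and 8.7%, median 2.78). Dppa3, which guards maternal methylation in the zygote, had 2 counts at day 0 and reached 53.5 and 53.3 CPM, a ratio of 1209 (334 to 9990). Lefty2 and Lefty1, inhibitors of Nodal, rose from 0.199 and 0.396 CPM to 146 and 179 CPM and from 0.279 and 0.198 CPM to 48 and 64.4 CPM. The ESC library held more of both, at 190 CPM of Lefty2 and 656 CPM of Lefty1. Zfp57, which protects imprinted methylation, fell from 380 and 609 CPM to 135 and 157 CPM, and L1td1 from 776 and 589 CPM to 280 and 293 CPM. Neither Zfp57 nor L1td1 was called without either wild-type day 10 library, and the calls were also lost without WT day 0 replicate B for Zfp57 and without WT day 0 replicate A for L1td1.

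**Figure D3:**
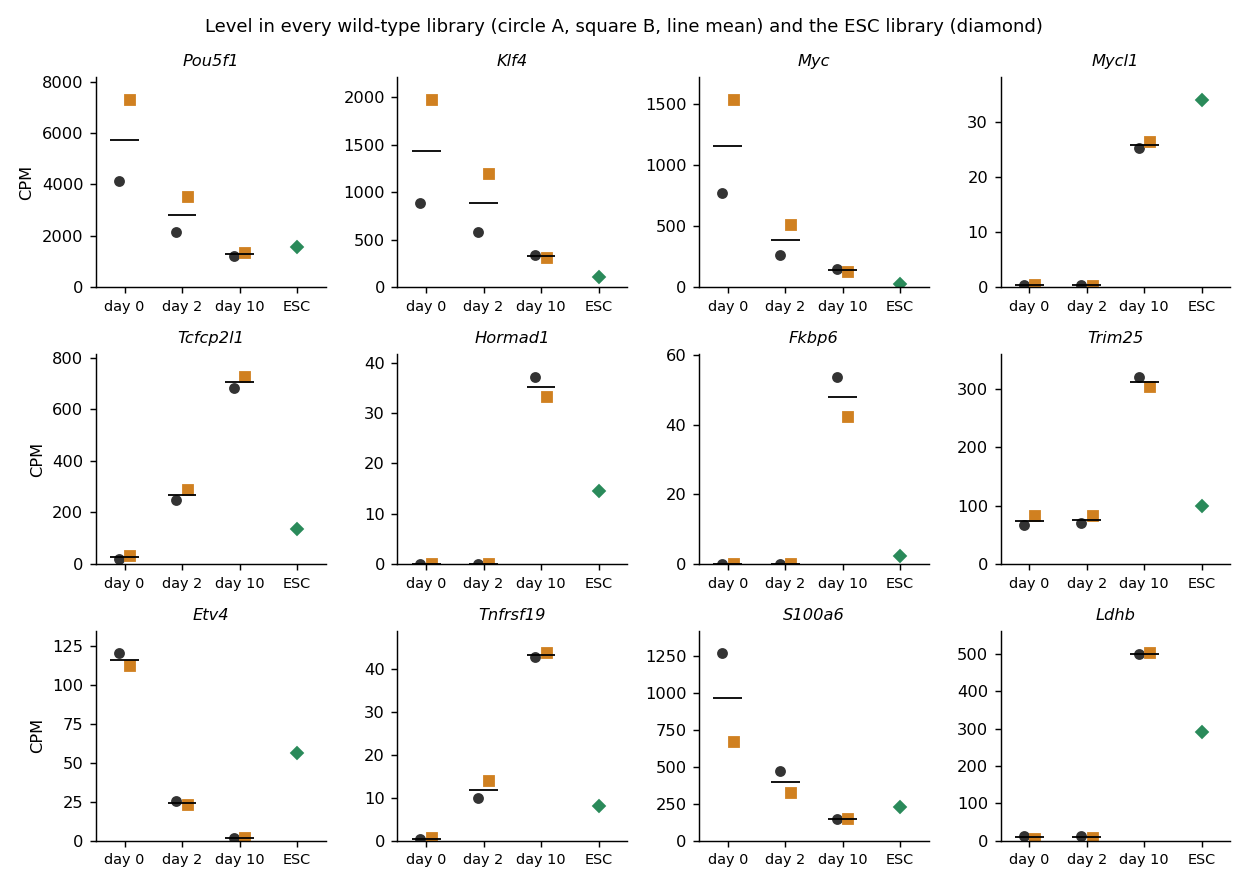
CPM of 12 genes in every wild-type library at day 0, day 2 and day 10 (circles replicate A, squares replicate B, lines the mean of 2) and in the single ESC library (diamonds), each panel from 0 on its own linear scale. Pou5f1, Klf4, Myc, Etv4 and S100a6 are lower at day 10 than at day 0 in both libraries, Tcfcp2l1 and Tnfrsf19 are already raised at day 2, and Mycl1, Hormad1, Fkbp6, Trim25 and Ldhb are raised at day 10 but lie near their day 0 level at day 2.

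Interferon-stimulated and RNA-sensing genes rose: 29 of 37 tested were higher and none lower (78.4% higher, beside 21% of all tested genes, median 2.38). Here 1 gene was lower at an unadjusted p under 0.05, and 1 was called lower by DESeq2 and, by edgeR, without WT day 0 replicate B. Trim25, the ubiquitin ligase that activates the RNA sensor RIG-I, stood at 65.9 and 82.1 CPM at day 0, at 70.1 and 81.9 CPM at day 2 and at 321 and 304 CPM at day 10 (2.08 ± 0.17, FDR 7.87e-05). Ifih1, the RNA sensor MDA5, went from 1.32 and 1.98 CPM to a mean of 16.3 CPM (SD 3.97, n = 2; 3.31 ± 0.32, FDR 0.000141). Zbp1, a sensor of Z-form nucleic acids, went from 4.55 and 3.91 CPM to 43.5 and 37.7 CPM (3.26 ± 0.25, FDR 5.39e-05). The ESC library lay below both day 10 libraries for all 3, at 99.2, 0.573 and 3.13 CPM. That motif, searched on both strands, occurred in 10 of the 20 promoters found for the members called higher (50.0%), in 4 of the 8 promoters of members not called (50.0%) and in 334 of all 11378 (2.9%). Isg15 held 3 overlapping matches and Ifih1 held 1, whose first base lies 32 bases past the start. The median number of CpG in the promoters of the members called higher was 6.

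Few antigen presentation genes were called. Of 23 tested genes of the MHC class I list 5 were higher and none lower (median 0.22), a share near that of all tested genes. None was lower at an unadjusted p under 0.05 or by DESeq2. The members called were Psmb8 and Psmb9, catalytic subunits of the immunoproteasome, the MHC genes H2-T10 and H2-Q2, and the MHC coactivator Nlrc5. Psmb8 rose from 2.59 and 1.63 CPM to 21.5 and 17.8 CPM (3.21 ± 0.49, FDR 0.00125), and the ESC library held 9.38 CPM. Without WT day 0 replicate A or WT day 10 replicate A, 3 of the 5 were called. The other 37 of 39 tested proteasome subunit genes were not called.

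Of 38 epithelial junction and splicing genes 23 were higher and 2 lower (60.5% and 5.3%, median 1.63). The shares of all tested genes were 21% and 13.1%. Cdh1, the cadherin of epithelia, stood at 51.2 and 86.6 CPM at day 0, at 235 and 471 CPM at day 2 and at 636 and 587 CPM at day 10 (3.15 ± 0.54, FDR 0.00229), with 591 CPM in the ESC library. Llgl2, a polarity protein, rose from 22.5 and 27.4 CPM to 176 and 171 CPM (2.80 ± 0.18, FDR 2.9e-05). Cldn6, a claudin of embryonic epithelia, had no count at day 0 or day 2 and stood at 26.8 and 32.7 CPM at day 10, which is at least 446-fold higher (FDR 0.000811). Grhl2, a transcription factor of epithelia, went from 1 count to 11.3 and 13.6 CPM, a ratio of 561 (100 to 22200). The members that fell were Ehf, an epithelial ETS factor (102 and 108 to 41.4 and 42.3 CPM), and Jup, the junction protein plakoglobin (302 and 339 to 179 and 162 CPM). Of 14 tested keratins 8 were higher and 2, Krt13 and Krt19, lower (57.1% and 14.3%). Krt18, the simple-epithelial partner of keratin 8, rose from 0.319 and 0.0495 CPM to 84.3 and 78.6 CPM (8.66 ± 0.73, FDR 0.00013). Krt14, a keratin of basal epithelia, rose from 1.28 and 2.47 CPM to 24 and 61.8 CPM (4.52 ± 0.72, FDR 0.00216), and its day 10 libraries differed widely.

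Of 14 tested trophectoderm markers 12 were higher and 2, Tead4 and Krt19, lower (85.7% and 14.3%, median 2.95). The shares of all tested genes were 21% and 13.1%. Gata2 rose from 2.27 and 3.27 CPM to 20.5 and 25.3 CPM and was at 13.3 and 20 CPM at day 2 (3.05 ± 0.30, FDR 0.000141). Hand1 rose from 0.399 and 0.445 CPM to 6.02 and 6.25 CPM (3.84 ± 0.31, FDR 0.000102). Both are transcription factors of trophoblast, and for both the day 2 libraries already lay above day 0. The list also holds keratins counted above.

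The mesenchymal and fibroblast list had 6 of 29 tested genes higher and 8 lower (20.7% and 27.6%, beside 21% and 13.1% of all tested genes, median -0.24). The higher genes were Mmp2, Dcn, Postn, Thy1, Acta2 and Pdgfrb. The lower genes were Cdh2, Vim, S100a4, Axl, Tgfbr2, Zeb2, Cd44 and Nt5e. Axl, a receptor tyrosine kinase, fell from 418 and 720 CPM to 43 and 31.8 CPM (-3.93 ± 0.59, FDR 0.00112). Tgfbr2, a TGF-beta receptor, fell from 50 and 70.4 CPM to 13.3 and 14.2 CPM (-2.13 ± 0.35, FDR 0.00189). Mmp2, a collagenase of the matrix, rose from 0.997 and 1.83 CPM to 11.5 and 8.93 CPM (2.86 ± 0.46, FDR 0.00168). The lower count was 5 without WT day 10 replicate B, and the higher count was 2 without WT day 10 replicate A and 3 without either wild-type day 0 library. Collagen genes moved one way, with 13 of 31 tested higher and none lower (41.9% higher, median 1.59). Here 1 was lower at an unadjusted p under 0.05, DESeq2 called none lower, and edgeR called 1 lower without either KO day 10 library. Col5a2 rose from 3.47 and 7.67 CPM to 35.4 and 92.2 CPM (3.52 ± 0.63, FDR 0.00377), and Col12a1 from 0.319 and 0.693 CPM to 7.23 and 8.62 CPM (3.98 ± 0.72, FDR 0.00285). Col12a1 and Col5a2 stood at 12.4 and 45.3 CPM in the ESC library.

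Of 10 tested S100 genes, which encode small calcium-binding proteins, 4 fell and 1 rose. These are 40.0% and 10.0%, beside 13.1% lower and 21% higher of all tested genes. S100a6 stood at 1268 and 670 CPM at day 0, at 475 and 322 CPM at day 2 and at 149 and 150 CPM at day 10 (-2.70 ± 0.44, FDR 0.00176). S100a3 fell from 57.6 and 39.3 CPM to 0.686 and 0.687 CPM (-6.13 ± 0.43, FDR 3.87e-05). S100a4, also counted in the mesenchymal and fibroblast list, fell from 104 and 58.5 CPM to 2.69 and 7.06 CPM (-4.07 ± 0.605, FDR 0.0011). S100a16 fell from 45.2 and 20.5 CPM to 3.17 and 3.44 CPM. S100a14 was the gene that rose, from 0.519 and 0.445 CPM to 4.54 and 4.06 CPM.

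Neural genes went both ways, with 8 of 33 tested higher and 10 lower (24.2% and 30.3%, median 0.34). The shares of all tested genes were 21% and 13.1%. Pax7, a factor of dorsal neural tube and muscle precursors, fell from 3.59 and 5.24 CPM to 0.317 and 0.125 CPM (-4.24 ± 0.54, FDR 0.000507). Olig1, a factor of the oligodendrocyte lineage, fell from 79.2 and 63.5 CPM to 24.1 and 18.7 CPM (-1.74 ± 0.21, FDR 0.000352). Sox1, a factor of neural progenitors, was higher at day 2 (48.7 and 49.8 CPM) than at day 0 (29.7 and 33 CPM) and lower at day 10 (13.2 and 10.4 CPM), with a day 10 to day 0 change of -1.41 ± 0.17 (FDR 0.000411). Tubb3, the neuronal tubulin, rose from 2.47 and 1.73 CPM to 20.1 and 29.2 CPM (3.54 ± 0.49, FDR 0.000765). The higher count was 4 without WT day 10 replicate A and 5 without WT day 10 replicate B, and the lower count was 6 without the latter.

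Hox genes, which record position along the body axis, fell in 12 of 31 tested cases and rose in 6 (median -1.01). These are 38.7% and 19.4%, beside 13.1% lower and 21% higher of all tested genes. The direction differed by cluster: all 6 called Hoxd genes and all 5 called Hoxa genes fell, all 4 called Hoxc genes rose, and in the Hoxb cluster Hoxb9 and Hoxb13 rose and Hoxb3 fell. Hoxd13 fell from 30.9 and 27.7 CPM to 3.54 and 4.75 CPM (-2.82 ± 0.27, FDR 0.000122), and Hoxd8 from 13.2 and 15.4 CPM to 3.33 and 2.37 CPM (-2.32 ± 0.24, FDR 0.000171). Hoxa10 fell from 27.7 and 30.1 CPM to 15.6 and 13 CPM (-1.01 ± 0.16, FDR 0.00134). Hoxc13, at the opposite end of its cluster from Hoxc4, stood at 0.12 and 0.198 CPM at day 0, at 0.345 and 0.181 CPM at day 2 and at 12.9 and 10.4 CPM at day 10 (6.17 ± 0.41, FDR 3.18e-05). Its neighbour Hoxc12 went from no count to 1.11 and 1.87 CPM, at least 22-fold higher. The difference between clusters was not tested. The Hoxc4 call was lost without any 1 wild-type library other than WT day 0 replicate B. It was also lost without any 1 KO library other than KO day 0 replicate A. The Hoxb13 call was lost without any 1 wild-type library, without either KO day 0 library and by DESeq2. The higher count was 3 without WT day 0 replicate A, without any 1 of the wild-type day 2 and day 10 libraries or without KO day 0 replicate B.

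**Figure D4:**
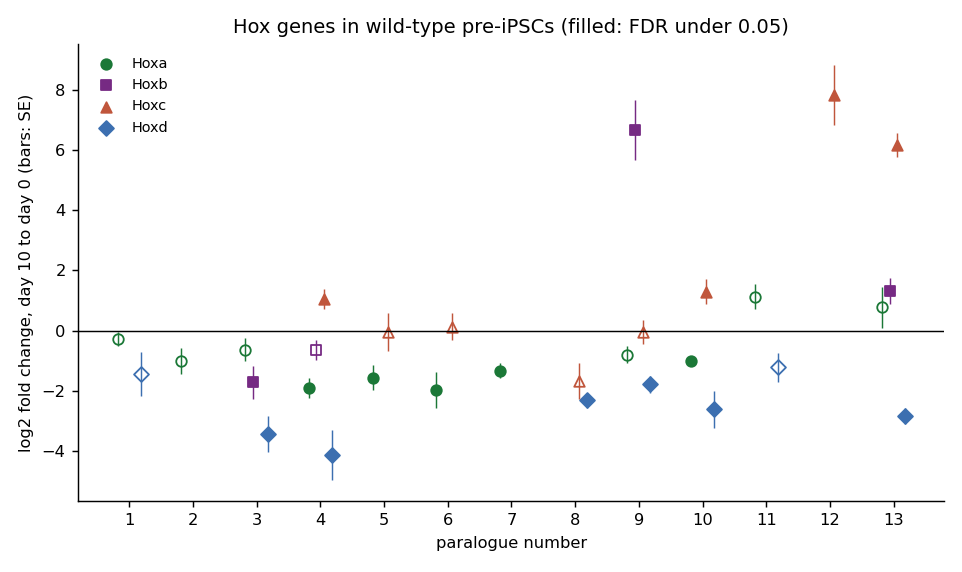
Log2 fold change of each tested Hox gene from day 0 to day 10 (y, bars are SE) by paralogue number (x), with shape and colour for the cluster and filled symbols for FDR under 0.05. Filled Hoxd diamonds and Hoxa circles lie below 0, and Hoxc12, Hoxc13 and Hoxb9 lie far above it; fitted values of genes with no count at day 0, such as Hoxc12, depend on the prior count.

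Target genes of the ERK and Wnt pathways, which the inhibitors address, were counted next. Neither list was tested as a set, and the part of the inhibitors in these changes was not tested. Of 23 tested ERK feedback and target genes 12 were lower and none higher (median -0.96), beside 13.1% lower of all genes. None was higher at an unadjusted p under 0.05 or by DESeq2, while a fit with a term for the replicate letter called 1 higher. Etv4, an ETS factor under ERK control, fell from 120 and 112 CPM through 25.2 and 23.2 CPM at day 2 to 1.69 and 1.87 CPM (-6.02 ± 0.20, FDR 3.04e-06). Its relative Etv1 fell from 44.1 and 58.7 CPM to 8.02 and 6.18 CPM (-2.85 ± 0.22, FDR 5.9e-05). The feedback inhibitors Spry4 and Spred1 fell from 120 and 177 CPM to 16.2 and 12.4 CPM (-3.38 ± 0.35, FDR 0.000195) and from 78.5 and 93.3 CPM to 25.4 and 20.5 CPM (-1.90 ± 0.17, FDR 9.46e-05). Etv4 stood at 56.2 CPM in the ESC library, above day 2 and below day 0.

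Of 18 tested Wnt target genes 12 were higher and 2 lower (66.7% and 11.1%, median 2.65). The shares of all tested genes were 21% and 13.1%. Tnfrsf19, the receptor TROY, rose from 0.319 and 0.643 CPM through 9.96 and 13.8 CPM at day 2 to 42.8 and 43.5 CPM (6.50 ± 0.495, FDR 5.39e-05). Cdx1, a homeobox gene of the posterior embryo, had no count at day 0 and stood at 2.11 and 2 CPM at day 10, which is at least 31.1-fold higher (FDR 0.00114). The members that fell were Ccnd1, cyclin D1, which is on the ERK list as well (388 and 371 to 121 and 106 CPM), and Apcdd1, a Wnt inhibitor (113 and 146 to 49.7 and 42.6 CPM). Outside the target list, the Wnt antagonist relative Dkk3 rose from 0.12 and 0.0495 CPM to 13.9 and 11.2 CPM (7.06 ± 0.47, FDR 3.18e-05), and Porcn, which attaches the lipid that Wnt proteins need for secretion, fell from 175 and 218 CPM to 50.2 and 46.5 CPM (-2.02 ± 0.29, FDR 0.000976).

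LIF and STAT3 genes did not move together, with 3 of 18 tested higher and 5 lower. The shares were 16.7% and 27.8%, beside 21% and 13.1% of all tested genes. Pim1, a kinase gene that STAT3 activates, rose from 28.5 and 34.6 CPM to 132 and 128 CPM (2.04 ± 0.16, FDR 5.39e-05), and Osmr, the oncostatin M receptor, fell from 111 and 179 CPM to 14.7 and 12.2 CPM (-3.43 ± 0.52, FDR 0.00116). The lower count was 1 to 3 without any 1 of the wild-type libraries. Of 30 tested BMP, Nodal and TGF-beta genes 9 were higher and 7 lower (30.0% and 23.3%). Bmp7, a ligand, rose from 0.439 and 0.495 CPM to 27 and 21.7 CPM (5.69 ± 0.51, FDR 9.46e-05), and Smad7, an inhibitor of the pathway, from 4.19 and 7.37 CPM to 47.1 and 51.2 CPM (3.09 ± 0.38, FDR 0.0004). Id3, a target of BMP signals, fell from 159 and 117 CPM to 47.5 and 43.1 CPM (-1.61 ± 0.28, FDR 0.00221). The higher count was 4 without WT day 10 replicate A and 5 without WT day 0 replicate A. The lower count was 4 without WT day 10 replicate A or WT day 0 replicate B and 2 without WT day 10 replicate B.

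By edgeR, of 20 tested genes of H3K9 methylation 1 was higher, the demethylase Phf8, and 3 were lower, and of 34 Polycomb genes 3 were higher and 5 lower (medians -0.17 and -0.09), beside 21% higher and 13.1% lower of all tested genes. DESeq2 called 3 higher and 4 lower in the H3K9 list and 7 higher and 8 lower in the Polycomb list. Kdm3a, the closest relative of Kdm3b, stood at 176 and 187 CPM, then 186 and 194 CPM (FDR 0.826). The methyltransferase Setdb1 stood at 197 and 259 CPM, then 153 and 160 CPM (FDR 0.105). A fit with a term for the replicate letter called Setdb1 lower (-0.53). Ehmt2, the methyltransferase G9a, fell from 239 and 279 CPM to 164 and 157 CPM (-0.69 ± 0.19, FDR 0.0229), and this call and that of its partner Ehmt1 were lost without WT day 0 replicate B or either wild-type day 10 library. The Ehmt1 call was also lost without WT day 2 replicate B or either KO day 10 library, and the count of lower H3K9 genes was 1 in the first 3 of these cases. Phf8 (28.8 and 37.6 to 50.3 and 47.7 CPM, FDR 0.0287) was called without WT day 0 replicate B but not without any other wild-type library, either KO day 10 library or KO replicate B of day 0 or day 2. Cbx7, the Polycomb chromobox protein of pluripotent cells, went from 1.92 and 2.62 CPM to 93.1 and 111 CPM (5.49 ± 0.47, FDR 8.62e-05). Mtf2, a partner of PRC2, rose from 125 and 124 CPM to 268 and 296 CPM (1.18 ± 0.14, FDR 0.000379). Bmi1, a PRC1 subunit, fell from 84.9 and 79 CPM to 31.5 and 32.5 CPM (-1.36 ± 0.14, FDR 0.000186), and E2f6, a repressor that recruits a variant PRC1 to germline promoters in mouse cells, from 66.1 and 56.8 CPM to 26.7 and 26.2 CPM (-1.22 ± 0.20, FDR 0.00173). The Polycomb count of lower genes was 3 without WT day 0 replicate B or WT day 2 or day 10 replicate B.

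Of 21 tested DNA methylation genes 5 were higher and 4 lower (23.8% and 19.0%, beside 21% and 13.1% of all tested genes). The maintenance methyltransferase Dnmt1 stood at 464 and 585 CPM, then 415 and 407 CPM (FDR 0.245), and its partner Uhrf1 at 624 and 566 CPM, then 542 and 544 CPM (FDR 0.696). Tet3 fell from 65 and 107 CPM to 26.4 and 23.3 CPM (-1.79 ± 0.36, FDR 0.00495), while Tet1 stood at 152 and 241 CPM, then 398 and 463 CPM (1.13 ± 0.35, FDR 0.0332). The Tet1 call was lost without any 1 wild-type library other than WT day 0 replicate B, and without either KO day 10 library. The higher count was 2 or 3 without any 1 of the wild-type or KO day 10 libraries, and the lower count 2 without WT day 0 replicate B or either wild-type day 10 library. Among other chromatin genes, Prdm16 and Prdm1, zinc-finger regulators of cell fate, rose from 0.279 and 0.198 CPM to 20 and 18.7 CPM (6.29 ± 0.57, FDR 0.000102) and from 0.399 and 0.94 CPM to 23.4 and 28.5 CPM (5.29 ± 0.57, FDR 0.000223).

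The machinery of respiration and translation was little called. None of 36 complex I, 15 ATP synthase and 8 ubiquinol-cytochrome c reductase subunit genes and none of 12 housekeeping genes was called in either direction, with medians of -0.18, -0.11, -0.13 and -0.21. At an unadjusted p under 0.05, 1 ubiquinol-cytochrome c reductase gene was higher, which DESeq2 called, and no gene of the other lists passed either. Of 79 cytosolic ribosomal protein genes 3 were higher (3.8%, beside 21% of all tested genes), the tissue-restricted copies Rpl10l, Rpl39l and Rpl3l. The Rpl3l call was lost without WT day 0 replicate B or either wild-type day 10 library. Of 15 cytochrome c oxidase genes 3 were higher. Cox7b2, an isoform of germ cells, went from no count at days 0 and 2 to 3.7 and 4.06 CPM, at least 58.3-fold higher (FDR 0.000342). Cox7a1, the muscle isoform, rose from 1.04 and 0.693 CPM to 15.4 and 13.1 CPM (4.02 ± 0.61, FDR 0.0012), and Cox5a from 112 and 78.7 CPM to 217 and 228 CPM (1.23 ± 0.26, FDR 0.00672).

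**Figure D5:**
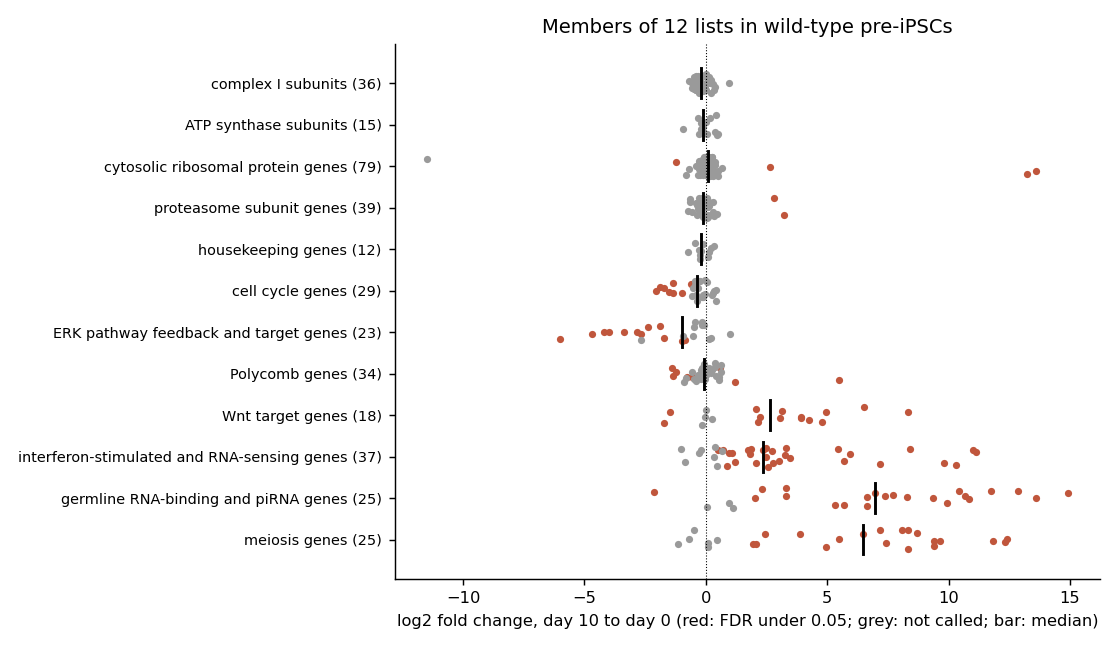
Log2 fold change from day 0 to day 10 of every tested member of 12 lists (points, red for FDR under 0.05 and grey otherwise; vertical bars are medians; vertical scatter within a row has no meaning). The 36 complex I and 15 ATP synthase genes cluster near 0 with no red point, the ERK list spreads to the left and the germline and meiosis lists to the right; values of genes with no count in a group depend on the prior count.

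In glycolysis 8 of 26 genes were higher and 3 lower (30.8% and 11.5%, beside 21% and 13.1% of all tested genes, median 0.29). Ldhb, the lactate dehydrogenase subunit of oxidative tissues, stood at 12.5 and 5.44 CPM at day 0, at 12 and 6.85 CPM at day 2 and at 498 and 501 CPM at day 10 (5.79 ± 0.54, FDR 0.000118). Slc2a3, a glucose transporter of embryo and neurons, rose from 128 and 189 CPM to 1023 and 1151 CPM (2.78 ± 0.52, FDR 0.00352), with 304 and 557 CPM at day 2. Hexokinases Hk1 and Hk2 rose from 75.7 and 101 CPM to 334 and 258 CPM (1.75 ± 0.25, FDR 0.000942) and from 204 and 228 CPM to 434 and 438 CPM (1.02 ± 0.19, FDR 0.00328). Eno2, the neuronal enolase, fell from 70.1 and 141 CPM to 12.2 and 9.24 CPM (-3.30 ± 0.61, FDR 0.00327). The lower count was 1 without WT day 0 replicate A or either wild-type day 10 library.

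Of 22 genes of threonine, glycine and folate-linked metabolism 6 were higher and 1 lower. These are 27.3% and 4.5%, beside 21% and 13.1% of all tested genes. Gldc and Amt, parts of the glycine cleavage system, rose from 5.75 and 10.5 CPM to 90.7 and 95.7 CPM (3.52 ± 0.54, FDR 0.00123) and from 3.95 and 5.44 CPM to 86.3 and 94.2 CPM (4.27 ± 0.61, FDR 0.000897). The gene that fell, the methionine synthase Mtr, was not called without WT day 0 replicate B or WT day 10 replicate B, and without either KO day 2 library or KO day 0 replicate B the count of lower genes was 2. In the ATF4 and amino acid stress list 9 of 19 tested genes were higher and 3 lower (47.4% and 15.8%, median 0.80). Asns, asparagine synthetase, rose from 135 and 82.8 CPM to 402 and 434 CPM (1.94 ± 0.40, FDR 0.00585), and Chac1, which degrades glutathione, from 1.2 and 1.29 CPM to 8.13 and 7.43 CPM (2.64 ± 0.35, FDR 0.000612). Atf5 fell from 90.3 and 70.3 CPM to 28.6 and 26.2 CPM (-1.55 ± 0.26, FDR 0.00211), and the lower count was 1 without WT day 10 replicate A. Serpins, protease inhibitors, had 18 of 28 tested genes higher and 2 lower (64.3% and 7.1%, median 1.92). Serpina3m rose from 0.239 and 0.346 CPM through 15.2 and 12.2 CPM at day 2 to 54.2 and 75 CPM (7.77 ± 0.41, FDR 2.11e-05). Of the 2 calls of lower serpins, 1 was lost without any 1 of the wild-type day 0 and day 10 and KO day 10 libraries. Neighbouring serpin copies resemble one another and may share reads.

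Of 263 tested solute carrier genes 62 were higher and 32 lower (23.6% and 12.2%), near the shares of all tested genes. Slc38a5, a glutamine transporter, fell from 824 and 849 CPM through 171 and 258 CPM at day 2 to 33.6 and 30.7 CPM (-4.70 ± 0.47, FDR 0.000161), and the ESC library held 0.886 CPM. Slc38a4, its imprinted relative, rose from 7.9 and 10.5 CPM to 244 and 267 CPM (4.80 ± 0.40, FDR 7.41e-05), with 203 CPM in the ESC library and 3.75 and 5.22 CPM at day 2. Of 32 tested imprinted genes 12 were higher and 5 lower (37.5% and 15.6%, beside 21% and 13.1% of all tested genes, median 0.43). Plagl1, a zinc-finger factor, rose from 2.23 and 4.5 CPM to 75.3 and 88.5 CPM (4.61 ± 0.50, FDR 0.000233), and Cdkn1c, the cyclin-dependent kinase inhibitor p57, from 3.39 and 1.73 CPM to 30.7 and 33.6 CPM (3.64 ± 0.41, FDR 0.000267). Snrpn, a splicing protein gene, fell from 194 and 138 CPM to 46.4 and 48.3 CPM (-1.81 ± 0.29, FDR 0.00162). The lower count was 2 without WT day 10 replicate A and 3 without WT day 10 replicate B. Allelic expression was not measured.

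No cell cycle gene of 29 tested was higher and 8 were lower (27.6%, beside 13.1% of all tested genes, median -0.35). None was higher at an unadjusted p under 0.05, and DESeq2 called 1 higher. Ccnd2, cyclin D2, fell from 275 and 312 CPM to 90.2 and 70.6 CPM (-1.87 ± 0.19, FDR 0.000171), E2f2 from 64.6 and 79 CPM to 15.1 and 19.5 CPM (-2.05 ± 0.24, FDR 0.00031), and Rb1, the retinoblastoma gene, from 102 and 92.4 CPM to 37.8 and 37.5 CPM (-1.37 ± 0.15, FDR 0.000274). The count was 5 without WT day 0 replicate B or either wild-type day 10 library. By chromosome, 28.0% of 535 tested genes on X were higher and 17.8% lower, beside 20.8% and 12.9% of 13687 on autosomes, with medians of -0.03 and -0.02.

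Marker genes of other cell types were summed to check the labelled cell type. Summed over 12 fibroblast markers, the wild-type libraries held 23.7 and 53.1 CPM at day 0 and 98.3 and 135 CPM at day 10, with Lum at 0. Summed over 5 haematopoietic markers they held 79.3 and 140 CPM, then 91.3 and 82.6 CPM, with Ptprc and Tyrobp at 0 at day 10. Summed over 6 endothelial markers they held 31.4 and 37.8 CPM, then 219 and 201 CPM, with Emcn at 0. Of these markers, Pecam1 was called higher and Tek lower, Cdh5 and Kdr were not called, and Tie1 and Emcn were not tested. Over 5 muscle markers the libraries held 5.39 and 2.72 CPM, then 11 and 9.24 CPM. The naive pluripotency markers, which include Pou5f1 and Klf4, summed to 5264 and 9752 CPM at day 0 and to 2927 and 3225 CPM at day 10, with none at 0. Pou5f1, Klf4 and Sox2 made up nearly all of the day 0 sum, so its fall does not describe the other members. Pou5f1 and Klf4 were called lower and Sox2 was not called. The other members, Nanog, Esrrb, Zfp42, Tbx3 and Dppa3, were each called higher at day 10. The part of markers of other cell types in the collagen and epithelial changes was not tested.

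The change from day 0 to day 10 differed between wild-type and Kdm3b KO cells for 1798 genes (12.6% of those tested) by the interaction term of the same fit. Of these, 888 (6.2%) changed more positively in wild type and 910 (6.35%) more negatively. DESeq2 gave 2746. The A minus B differences of day 0 were shared by wild-type and KO libraries (r = 0.938), which this fit leaves in the spread, and a fit with a term for the letter gave 2942. In the meiosis list 8 members changed more positively in wild type and none more negatively, and in the interferon list 7 and none. The ATF4 list had 8 and none, the cholesterol and fatty acid list 5 and none, the ERK list 1 and 5, and the Hox list 3 and 7. In the naive pluripotency list 3 members changed more positively and 7 more negatively in wild type, and in the neural list 5 and 10. Mycl1 stood at 1.07 and 0.888 CPM at day 0 and at 2.11 and 0.965 CPM at day 10 in KO cells, a change of 0.64 beside 6.35 in wild type (interaction 5.71 ± 0.54, FDR 0.000543). Hoxc13 stood at 2.24 and 2.22 CPM, then 1.36 and 1.02 CPM, in KO cells (-0.90 beside 6.17, FDR 0.000201). Sox1 rose in KO cells, from 41.4 and 48.3 CPM to 138 and 160 CPM (1.73 beside -1.41, FDR 0.000221). Etv4 stood at 150 and 155 CPM, then 44.7 and 37.4 CPM, in KO cells (-1.89 beside -6.02, FDR 0.000128). Both day 10 KO libraries lay below the wild-type day 10 libraries for Mycl1 and Hoxc13 and above them for Sox1 and Etv4. The interaction count ranged from 925 to 1975 when single libraries were left out, and was under 1200 without any 1 of the wild-type day 0 and day 10 libraries, KO day 0 replicate B or either KO day 10 library.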

How the data were processed

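RNA was measured by single-end sequencing of TruSeq libraries from wild-type and Kdm3b KO mouse pre-iPSCs and 1 ESC culture. The authors aligned reads with Bowtie2 to mm9 and quantified genes with RSEM, per the submitters' processing notes, with no versions given. The deposited files hold expected counts (estimated, not scaled to depth) and TPM, which the authors' RSEM runs scaled by length and depth, per the file headers. TPM was not tested. Expected counts were rounded and fitted with edgeR 4.0.16 (R 4.3.3, limma 3.58.1): filterByExpr, TMM, quasi-likelihood F-tests over 12 libraries in 6 groups (6 residual degrees of freedom), Benjamini-Hochberg adjusted p (FDR) under 0.05, with no fold threshold. ± values are SE. The fit was tested on simulated data.

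The genes named were drawn from the reprogramming factors, the 15 largest changes each way (at least 5 CPM in the higher group, no overlap, clone-type symbols left out), the 10 most abundant calls each way of at least 2-fold and, per list, up to 6 calls each way with the lowest FDR all calls where a list had 5 or fewer, and any member, called or not, of the H3K9 and DNA methylation lists. Not all are described. The members and gene lists were chosen with earlier results of these data known. Replicate letters were not taken as pairs, because A minus B differences at day 10 correlated negatively with those at day 0 (r = -0.181). Ratios of genes with few counts carry exact 95% intervals, which cover counting error only, and for a gene with no count in a group, 3 counts served as the floor of that group. DESeq2 1.42.0, other normalisations, filters, sample sets, a replicate block, a 2-fold threshold and leaving out single libraries were tried. Promoters came from RefSeq (GRCm38.p6), matched by symbol, with the first start listed for each gene, and 94 tested genes had no chromosome there. A call in 1 gene list is not reported here.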

Additional observations from a re-analysis of the deposited data

Results flagged for a closer look

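The log2 change from day 0 to day 10 differed between wild-type and Kdm3b KO cells for these 20 named genes, by the interaction term of edgeR's quasi-likelihood fit. The first 13 changed more positively in wild type. Mycl1, a MYC family gene, changed by 6.35 in wild type and 0.64 in KO cells, a difference of 5.71 (SE 0.535, FDR 0.000543). Mycn, a MYC family gene, changed by 0.16 in wild type and -1.16 in KO cells, a difference of 1.31 (SE 0.21, FDR 0.00493). Isg15, a ubiquitin-like protein induced by interferon, changed by 5.45 in wild type and 1.16 in KO cells, a difference of 4.29 (SE 0.735, FDR 0.00671). Irf7, an interferon regulatory factor, changed by 5.69 in wild type and 2.54 in KO cells, a difference of 3.15 (SE 0.541, FDR 0.00673). Hsf2bp, a meiotic recombination factor, changed by 7.16 in wild type and 1.63 in KO cells, a difference of 5.53 (SE 0.766, FDR 0.00268). Hormad2, a meiotic axis protein, changed by 7.41 in wild type and 0.31 in KO cells, a difference of 7.10 (SE 1.19, FDR 0.00602). Trib3, a pseudokinase of the stress response, changed by 2.13 in wild type and -0.87 in KO cells, a difference of 2.99 (SE 0.263, FDR 0.000433). Chac1, a glutathione-degrading enzyme, changed by 2.64 in wild type and -2.35 in KO cells, a difference of 5.0 (SE 0.492, FDR 0.000624). Insig1, a regulator of sterol synthesis, changed by 0.82 in wild type and -1.10 in KO cells, a difference of 1.92 (SE 0.209, FDR 0.000927). Sqle, squalene epoxidase, changed by 0.66 in wild type and -0.75 in KO cells, a difference of 1.41 (SE 0.265, FDR 0.00992). Mtf2, a PRC2 partner, changed by 1.18 in wild type and -0.74 in KO cells, a difference of 1.93 (SE 0.201, FDR 0.000768). Hoxc13, a posterior Hox gene, changed by 6.17 in wild type and -0.90 in KO cells, a difference of 7.06 (SE 0.528, FDR 0.000201). Bmp7, a BMP ligand, changed by 5.69 in wild type and -0.13 in KO cells, a difference of 5.82 (SE 0.663, FDR 0.00116).

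The other 7 changed more negatively in wild type. Etv4, an ETS factor, changed by -6.02 in wild type and -1.89 in KO cells, a difference of -4.13 (SE 0.234, FDR 0.000128). Etv1, an ETS factor, changed by -2.85 in wild type and -0.74 in KO cells, a difference of -2.11 (SE 0.296, FDR 0.00286). Bmi1, a PRC1 subunit, changed by -1.36 in wild type and 0.04 in KO cells, a difference of -1.40 (SE 0.195, FDR 0.00282). Hoxd13, a posterior Hox gene, changed by -2.82 in wild type and -0.32 in KO cells, a difference of -2.50 (SE 0.353, FDR 0.00289). Sox1, a neural progenitor factor, changed by -1.41 in wild type and 1.73 in KO cells, a difference of -3.14 (SE 0.243, FDR 0.000221). Sox11, a neural progenitor factor, changed by -3.28 in wild type and -0.53 in KO cells, a difference of -2.75 (SE 0.325, FDR 0.00131). Id3, a BMP target, changed by -1.61 in wild type and 1.48 in KO cells, a difference of -3.09 (SE 0.388, FDR 0.00167).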

How the results depend on the processing

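The replicate block (letter A or B as a term) gave 3680 genes higher and 2629 lower. It moved the interaction count to 2942, and its calls included all 4889. Restricting that block to days 0 and 2, chosen after seeing the data, gave 4992 higher, 4659 lower and 6388 for the interaction. A crossed block, also chosen after seeing the data, gave 3722, 2782 and 3122. Against a 2-fold change, glmTreat gave 1855 higher and 513 lower. DESeq2 gave 3191 higher, 2092 lower and 2746 for the interaction, and shared 4642 calls, with 0 of opposite sign. Leaving out single libraries gave 2034 to 3221 higher, 906 to 2134 lower and 925 to 1975 for the interaction. The lower count was 906 and 966 without WT day 10 replicates B and A, and 1209 without WT day 0 replicate B. The causes were not tested. With 2 libraries a group, a library left alone is assumed to vary like the other groups. Other normalisations, filters and sample sets kept both counts within 1.5 times the reported ones. The replicate block called 2 meiosis genes lower and 1 ERK list gene higher, where none was called without it. It called 3 higher and 6 lower in the H3K9 list, where Setdb1 (-0.53) was called, and 8 higher and 8 lower in the Polycomb list. The mesenchymal list then had 8 higher and 11 lower. Of 142 list counts, the block at days 0 and 2 only moved 70, glmTreat 68, the loss of WT day 10 replicate A 56 and of replicate B 53, the replicate block 26 and DESeq2 20.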
